A study of Homo sapiens with 6 samples.

Results

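Cadherins are calcium-dependent adhesion proteins of the cell surface, and 8 of their genes were followed here in HK-2 cells: CDH1, CDH2, CDH3, CDH4, CDH6, CDH11, CDH13 and CDH16. They were taken by symbol from the Ensembl identifiers of the deposited tables, and they make up 8 of 38126 gene IDs. HK-2 is a human cell line, immortalised from the proximal tubule epithelium of the kidney. One group was exposed to phosphoramidon, which blocks zinc-dependent peptidases including neprilysin, for 24 h (n = 3), and it was set against untreated cells (n = 3). No dose is given. Both groups were grown in keratinocyte serum-free medium with bovine pituitary extract and epidermal growth factor and were nearly confluent when exposure began. Untreated titles also contain an unexplained CSE. Whether the libraries of a group are separate cultures is not stated, and the spread behind each p-value may be technical.

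A cadherin on one cell binds a cadherin on its neighbour through its outer domains, and its cytoplasmic tail holds p120-catenin and beta-catenin. Of these, beta-catenin links it through alpha-catenin to actin. Type I classical cadherins (CDH1 to CDH4 here) and type II classical cadherins (CDH6 and CDH11) work in this way. CDH16 has a short tail and CDH13 is held in the membrane by a lipid anchor, so both belong to the wider family and not to the classical group. Epithelia usually carry CDH1, but human proximal tubules are known for CDH2 and CDH6, and CDH16 is known as the kidney-specific cadherin. CDH2 and CDH11 are otherwise known from mesenchymal cells.

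In phosphoramidon-treated cells, CDH6 and the epithelial type I cadherin CDH3 were lower than in untreated cells, while CDH2, by a small amount, and the low CDH4 were higher. CDH6, one of the most abundant members, was at about 50% of its untreated level, with an FPKM ratio of 0.497. The renal cadherin CDH16 and the epithelial cadherin CDH1 did not pass the test. CDH11 and CDH13 were at or near 0 in every library. Levels are FPKM, fragments scaled to gene length and to the size of the library. Being per length, they can be compared between genes only roughly, since they depend on the gene length used.

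Fragments were recovered from the FPKM values, and 18690100 to 24919568 were assigned to genes in the phosphoramidon libraries, against 23493829 to 24815378 in the untreated libraries. A single fragment on a gene of 1 kb was worth 0.0401 to 0.0535 FPKM. Differences were tested with limma on log2(FPKM + 0.1) after scaling, over 16169 genes with at least 10 fragments in at least 3 libraries, and a gene is called at a Benjamini-Hochberg adjusted p below 0.05. Of these genes 33.6% were called, 15.7% as higher and 17.9% as lower, and the median log2 fold change was 0.01. Without scaling between libraries the median was 0.07 and 62.7% of the calls were higher, against 46.6% with it. Only MIOX of 10 proximal tubule markers reached 0.5 FPKM in every library, SLC22A6 was at 0 in all, and the summed level of the list was 3.76 to 4.28 FPKM with phosphoramidon and 7.22 to 7.59 FPKM in untreated cells. The megalin gene LRP2, which defines the proximal tubule, reached no more than 0.00635 FPKM with phosphoramidon and 0.00528 FPKM in untreated cells, and HNF4A was at 0 with phosphoramidon and no more than 0.00551 FPKM in untreated cells. Of 5 fibroblast and mesangial markers COL1A1 and LUM reached that level, and the list summed to 23.5 to 24.9 FPKM with phosphoramidon and 60.8 to 65.7 FPKM in untreated cells. No distal tubule, endothelial or leukocyte marker reached 0.5 FPKM in every library. Most of the proximal tubule sum was MIOX, at 2.93 to 3.49 FPKM with phosphoramidon and 6.02 to 6.46 FPKM in untreated cells. Most of the fibroblast and mesangial sum was LUM, at 19.3 to 20.3 FPKM with phosphoramidon and 49.9 to 55.4 FPKM in untreated cells. The lower sums thus mainly reflect these genes and not each list as a whole. The part of either list in the results on cadherins was not tested, and fewer cells of a type and less RNA per cell cannot be told apart in these libraries.

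**Figure D1:**
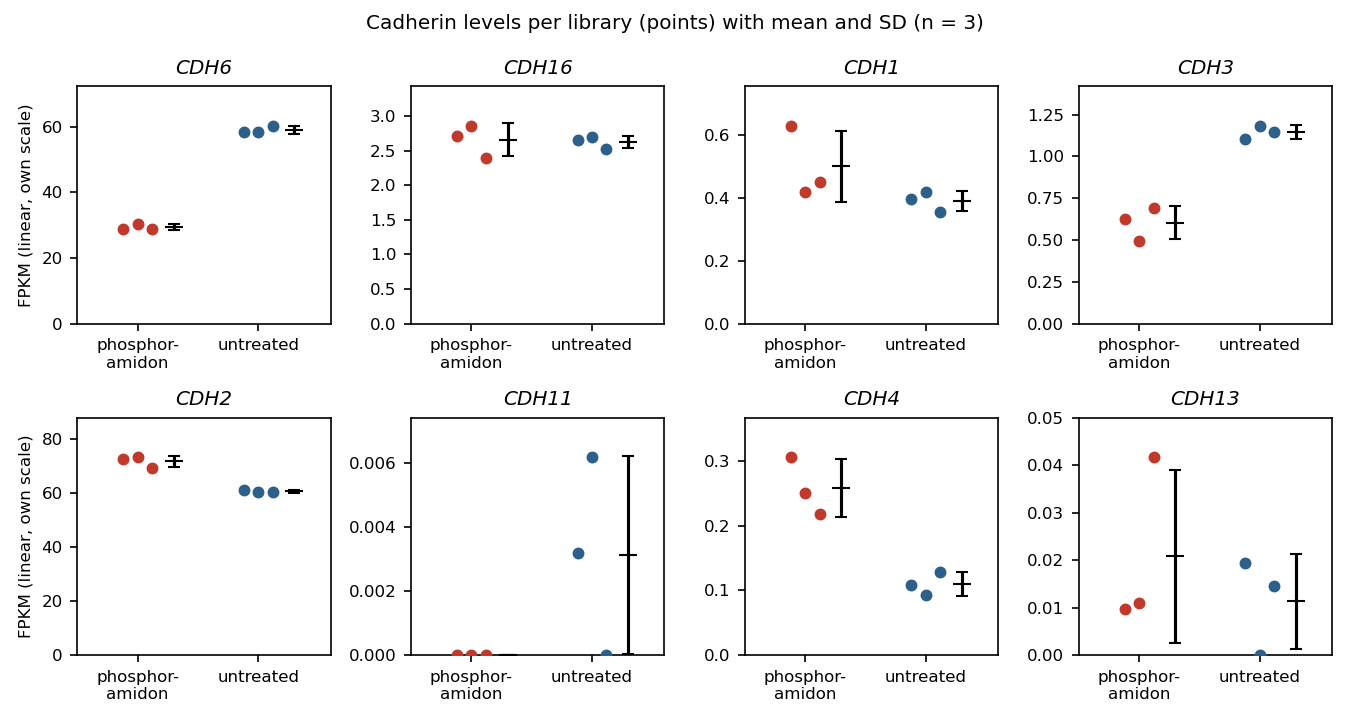
FPKM of the 8 cadherins on linear axes, each with its own scale, in phosphoramidon libraries (red, left) and untreated libraries (blue, right). Points are replicates 1 to 3 from left to right and bars are the mean and SD (n = 3): CDH6 and CDH3 lie lower with phosphoramidon, CDH2 and CDH4 higher, and CDH11 lies at 0 in all 3 phosphoramidon libraries.

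Of the 6 members that passed the filter on low values, 4 were called, against 33.6% of all tested genes. Higher were 2 of them (CDH2 and CDH4), against 15.7% of tested genes, and lower were 2 (CDH6 and CDH3), against 17.9%. The median log2 fold change of the 6 was 0.06. A second test asked whether a change exceeded 1.5-fold. It was passed by 0.804% of tested genes, 0.148% as higher and 0.656% as lower, and, of the 6 members, by CDH6 as lower. The deposited FPKM of the groups did not overlap for 5 of the 6 members, against 49.7% of tested genes.

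CDH6, K-cadherin, is a type II cadherin of the developing and adult renal tubule (ENSG00000113361, chromosome 5, 31193750 to 31329146 on the plus strand of GRCh38, as are all positions below). Its level was 28.8, 30.4 and 28.8 FPKM in phosphoramidon replicates 1, 2 and 3, against 58.3, 58.4 and 60.4 FPKM in untreated replicates 1, 2 and 3. The highest phosphoramidon library thus lay far below the lowest untreated one, and the libraries of each group lay close together. The means were 29.4 ± 0.894 FPKM with phosphoramidon and 59.0 ± 1.19 FPKM in untreated cells (SD, n = 3 each). The log2 fold change was -1.08 ± 0.04 (SE), a 2.11-fold lower level with a 95% interval from -1.17 to -0.98 on the log2 scale (limma adjusted p = 2.9e-06). The test against 1.5-fold gave a limma adjusted p of 4.5e-04. CDH6 ranked 9 by p-value among the 16169 tested genes and had the 166th lowest log2 fold change. Its depth was 6706 to 9423 fragments per phosphoramidon library and 17048 to 18652 per untreated library. An antisense gene annotated within its span held 0 to 4 fragments, and whether counting used strand is not stated. Even with phosphoramidon the level of CDH6 exceeded that of 92.3% of tested genes, against 96.8% in untreated cells.

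CDH16 is the kidney-specific cadherin of tubular epithelium (ENSG00000166589, chromosome 16, 66908122 to 66918984, minus strand). It measured 2.71, 2.86 and 2.39 FPKM in phosphoramidon replicates 1 to 3, against 2.66, 2.69 and 2.53 FPKM in untreated replicates 1 to 3. The phosphoramidon libraries lay on both sides of the untreated ones. Its log2 fold change was -0.06 ± 0.09 (SE, limma adjusted p = 0.67), and the 95% interval ran from 0.837-fold to 1.11-fold. The sign of this small difference turned to 0.01 without scaling between libraries and to 0.03 without phosphoramidon replicate 3. The interval does not reach the size of the difference in CDH6.

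CDH1, E-cadherin, is the main cadherin of most epithelia (ENSG00000039068, chromosome 16, 68737225 to 68835548, plus strand). Its level was 0.631, 0.421 and 0.452 FPKM with phosphoramidon, against 0.398, 0.418 and 0.357 FPKM in untreated replicates 1 to 3. One phosphoramidon library stood above the other 5, and the lowest phosphoramidon value was barely above the highest untreated value. Each value rests on 54 to 72 fragments with phosphoramidon and 54 to 62 in untreated cells. The log2 fold change was 0.22 ± 0.18 (SE, limma adjusted p = 0.37), with a 95% interval from 0.884-fold to 1.54-fold. The SD between phosphoramidon libraries was 22.6% of the mean, against 12.6% from counting error alone.

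CDH3, P-cadherin, is a type I cadherin of basal epithelial layers (ENSG00000062038, chromosome 16, 68636189 to 68722616, plus strand). It lies 14.6 kb before CDH1, and 5 of the 8 members are on chromosome 16. CDH3 measured 0.625, 0.495 and 0.690 FPKM with phosphoramidon, against 1.11, 1.18 and 1.15 FPKM in untreated replicates 1 to 3. All 3 phosphoramidon libraries lay below all 3 untreated libraries. The means were 0.603 ± 0.0991 FPKM with phosphoramidon and 1.15 ± 0.0390 FPKM in untreated cells (SD, n = 3 each), from 71 to 82 and 158 to 175 fragments per library. CDH3 fell by 0.90 ± 0.14 on the log2 scale (SE), a 1.86-fold lower level (limma adjusted p = 0.0017). Its test against 1.5-fold was not passed (limma adjusted p = 0.93), and its fold change was the 287th lowest of the tested genes. On the log2(FPKM + 0.1) scale the change of such a low gene is understated: its fold change was -1.03 by voom, which models the fragments, and -0.45 with a pseudocount of 1. An antisense gene within the span of CDH3 held 0 to 8 fragments.

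CDH2, N-cadherin, is the type I cadherin of neural and mesenchymal cells and of the proximal tubule (ENSG00000170558, chromosome 18, 27950966 to 28177446, minus strand). Its level was 72.4, 73.3 and 69.4 FPKM with phosphoramidon, against 61.2, 60.3 and 60.2 FPKM in untreated replicates 1 to 3. The groups did not overlap, and the gap between them was wider than the range within either. The means were 71.7 ± 2.03 FPKM with phosphoramidon and 60.6 ± 0.576 FPKM in untreated cells (SD, n = 3 each). CDH2 rose by 0.17 ± 0.04 on the log2 scale (SE), 1.13-fold, with a 95% interval from 0.08 to 0.26 (limma adjusted p = 0.013). The call was lost without phosphoramidon replicate 2, where the difference was 0.16 (limma adjusted p = 0.052). Without scaling between libraries the difference was 0.24. CDH2 lay above 97.6% of tested genes in phosphoramidon cells and above 96.9% in untreated cells.

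CDH4, R-cadherin, is a type I cadherin first described in the retina (ENSG00000179242, chromosome 20, 61252426 to 61940617, plus strand). It was low throughout, at 0.306, 0.251 and 0.218 FPKM with phosphoramidon against 0.108, 0.0930 and 0.129 FPKM in untreated replicates 1 to 3. All phosphoramidon values exceeded all untreated values. They rest on 43, 47 and 32 fragments with phosphoramidon and on 19, 17 and 24 in untreated cells. Counting error alone gives a coefficient of variation of 15.7% with phosphoramidon and 22.4% in untreated cells, close to the 17.3% and 16.3% seen between replicates of these groups. CDH4 rose by 0.72 ± 0.17 on the log2 scale (SE, limma adjusted p = 0.011), while the ratio of mean FPKM was 2.35. The call was lost when no filter on low genes was used (limma adjusted p = 0.14), and the size ran from 0.17 with a pseudocount of 1 to 1.14 by voom.

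The remaining members, CDH11 and CDH13, failed the filter and were not called. CDH11, OB-cadherin, is the type II cadherin of fibroblasts and osteoblasts (ENSG00000140937, chromosome 16, 64943753 to 65126112, minus strand). It had 0 fragments in each phosphoramidon library and 1, 2 and 0 in untreated replicates 1 to 3. A count of 0 allows up to 3 fragments, or 0.0120, 0.00900 and 0.0115 FPKM in phosphoramidon replicates 1 to 3, for counting error only, so no difference could be shown at this depth. CDH13, T-cadherin, is known from endothelium and muscle (ENSG00000140945, chromosome 16, 82626803 to 83800640, plus strand). It had 2, 3 and 9 fragments with phosphoramidon and 5, 0 and 4 in untreated cells, and the groups overlapped.

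**Figure D2:**
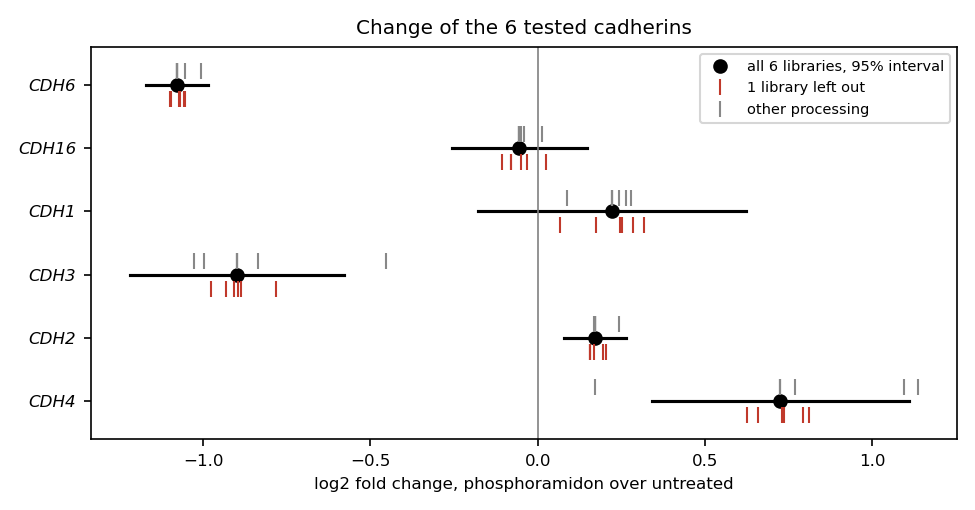
Log2 fold change of the 6 tested cadherins, phosphoramidon over untreated, on the log2(FPKM + 0.1) scale: black points and lines give the value from all 6 libraries and its 95% interval, red ticks the values with 1 library left out, and grey ticks those under other processing. CDH6 stays at -1.10 to -1.01 in all of them, CDH3 and CDH4 spread widely, and CDH16 and CDH1 have intervals that span 0.

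The order of mean levels was CDH2, CDH6, CDH16, CDH3, CDH1, CDH4, CDH13 and CDH11 in both groups, but the steps differed. In phosphoramidon cells CDH2 was 2.44 times as high as CDH6, with no overlap, and in untreated cells the ratio was 1.03 and the ranges of both genes overlapped. CDH6 stood 11.1 times above CDH16 with phosphoramidon and 22.5 times above it in untreated cells. CDH3 and CDH1 were neighbours with overlapping ranges in phosphoramidon cells, where CDH3 was 1.20 times CDH1, and were apart in untreated cells, where it was 2.93 times CDH1. CDH13 and CDH11 overlapped in untreated cells.

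Together the 8 genes reached 105 ± 2.85 FPKM with phosphoramidon and 124 ± 0.849 FPKM in untreated cells (SD, n = 3 each), with no overlap. Phosphoramidon minus untreated, the difference in mean level was -29.7 FPKM for CDH6 and 11.1 FPKM for CDH2. CDH6 made up 27.3%, 28.2% and 28.3% of the sum in phosphoramidon replicates 1 to 3, against 47.1%, 47.4% and 48.4% in untreated replicates 1 to 3. The shares of the groups lay nearly 20 percentage points apart (-19.7), and the difference in the sum was -18.8 FPKM (two-sided exact permutation p = 0.1 for each, the smallest that 3 against 3 allows). These levels are deposited FPKM, and with scaling between libraries the difference in the sum was -24.4 FPKM (exact permutation p = 0.1). CDH2 held 68.2 ± 0.346% of the sum with phosphoramidon and 48.9 ± 0.608% in untreated cells. CDH2 and CDH6 together held 96.2 ± 0.189% with phosphoramidon and 96.5 ± 0.113% in untreated cells, so the other 6 cadherins, CDH1 among them, gave under 4% in both.

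**Figure D3:**
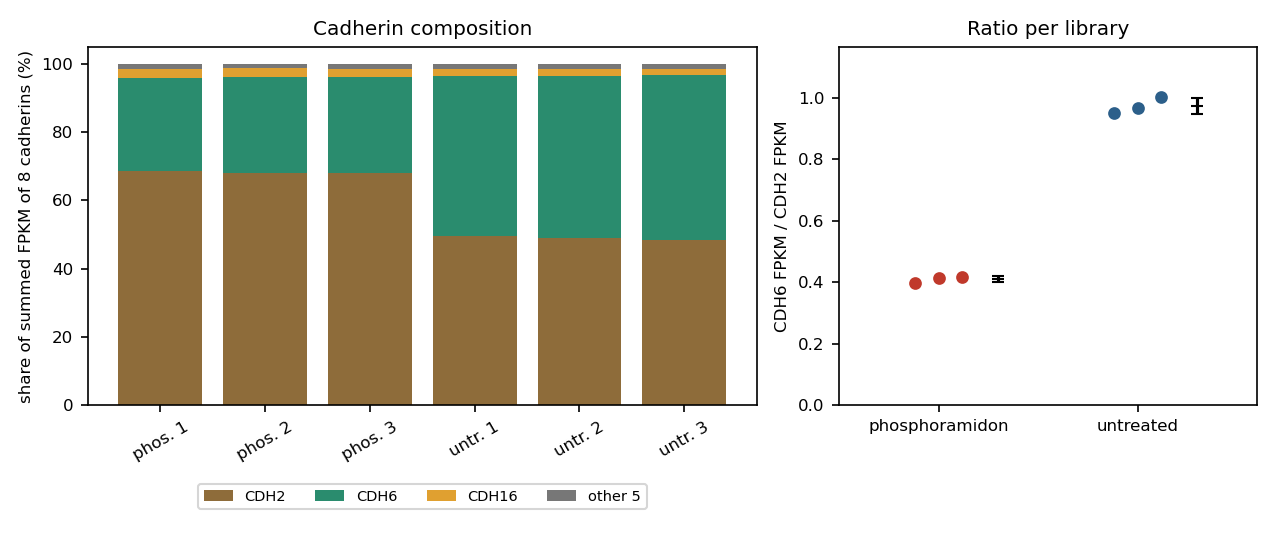
Left, the share of the summed FPKM of 8 cadherins per library, phosphoramidon replicates before untreated ones; right, the ratio of CDH6 FPKM to CDH2 FPKM per library with mean and SD (n = 3). CDH6 holds 27.3% to 28.3% of the sum with phosphoramidon and 47.1% to 48.4% in untreated cells, and the ratio averages 0.410 and 0.975 in these groups.

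Ratios of FPKM between members within a library do not depend on scaling between libraries. For testing, 0.1 was added to both genes before log2, and with low genes such log2 ratios can still depend on it. In all, 6 log2 ratios were compared by exact permutation with p-values adjusted over the 6, while the ratios printed are of plain FPKM. The ratio of CDH6 to CDH2, both known from the proximal tubule, was 0.398, 0.415 and 0.416 with phosphoramidon, against 0.952, 0.968 and 1.003 in untreated replicates 1 to 3. The groups lay far apart, by -1.25 on the log2 scale (two-sided exact permutation p = 0.1, adjusted p = 0.12). The ratio of CDH6 to CDH16 was 11.1 ± 0.828 with phosphoramidon and 22.5 ± 1.22 in untreated cells, and that of CDH6 to CDH1 was 60.6 ± 13.6 with phosphoramidon and 152 ± 15.5 in untreated cells (SD, n = 3 each). Neither group overlapped the other in these ratios, and each had the same exact permutation p of 0.1. The ratio of CDH1 to CDH3 was 0.838 ± 0.177 with phosphoramidon and 0.341 ± 0.0263 in untreated cells. With 0.1 added to both genes, its log2 difference was 1.11 (exact permutation p = 0.1, adjusted p = 0.12). That difference depended on the pseudocount, at 0.53 with a pseudocount of 1 and 1.26 with 0.01. The ratio of CDH1 to CDH2, in contrast, differed by 0.04 on the log2 scale (exact permutation p = 0.9, adjusted p = 0.9), and its sign turned to -0.13 with a pseudocount of 1. That of CDH11 to CDH2 is set by the pseudocount, since CDH11 was nearly absent.

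**Figure D4:**
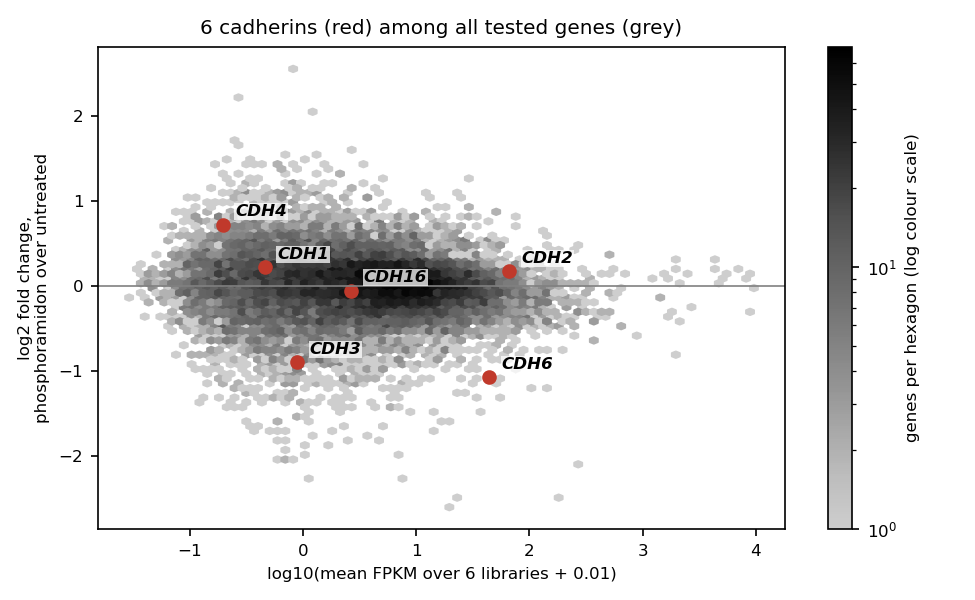
Log2 fold change, phosphoramidon over untreated, against log10 of the mean FPKM plus 0.01 for the 16169 tested genes (grey hexagons, darker for more genes on a log colour scale) and the 6 tested cadherins (red points). CDH6 lies at -1.08, at the lower edge of genes of like abundance, CDH2, more abundant, lies at 0.17, and CDH16 lies inside the bulk.

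Some genes followed CDH6 closely over the 6 libraries by Pearson's r of log2 values among 12278 genes that averaged 50 or more fragments. The closest was the matrilysin gene MMP7, at 15.2 ± 0.826 FPKM with phosphoramidon and 35.0 ± 0.915 FPKM in untreated cells (r = 0.9995). Next came TNFSF10, the death ligand TRAIL, at 34.5 ± 1.61 FPKM with phosphoramidon and 70.8 ± 2.75 FPKM in untreated cells (r = 0.9992). The tight junction claudin CLDN11 was at 23.5 ± 0.450 FPKM with phosphoramidon and 47.5 ± 1.47 FPKM in untreated cells (r = 0.9989), and RHOBTB1 and the retinol dehydrogenase RDH10 followed. CDH2 was followed most closely by the cell-cycle kinase CDK2, at 21.4 ± 0.791 FPKM with phosphoramidon and 17.4 ± 0.288 FPKM in untreated cells (r = 0.9994), and then by POGZ, CFAP20, NFATC2IP and ERP44. These values describe 3 and 3 libraries, in which any gene that separates the groups correlates with CDH6 or with CDH2.

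Other genes of cadherin adhesion were taken in 9 lists, and their counts are to be read against 15.7% higher and 17.9% lower over all tested genes. Of 6 tested further cadherins, 2 were higher and 0 lower, with a median log2 fold change of 0.30 against 0.01 over all genes. All but CDH24 had group means of at most 0.397 FPKM, so that median rests on low genes. The list also holds CDH17, which failed the filter and is given at the end, so these counts cover tested genes only. CDH24, a type II cadherin, was at 11.0 ± 0.146 FPKM with phosphoramidon and 8.75 ± 0.281 FPKM in untreated cells (0.25, limma adjusted p = 0.0042). CDH26 had a far lower level than CDH24, at 0.397 ± 0.104 FPKM with phosphoramidon and 0.185 ± 0.0274 FPKM in untreated cells (0.74, limma adjusted p = 0.016), and lost its call with no filter on low genes (limma adjusted p = 0.13). Of 3 tested desmosomal cadherins, which tie cells to the keratin network, 2 were lower and 0 higher. DSG2, the most abundant of the 3, was not called (-0.10, limma adjusted p = 0.079). It was at 35.6 ± 1.02 FPKM with phosphoramidon and 36.3 ± 1.41 FPKM in untreated cells. DSC2 was at 3.25 ± 0.245 FPKM with phosphoramidon and 4.13 ± 0.134 FPKM in untreated cells (-0.41, limma adjusted p = 0.0029). DSC3 differed by -0.36 (limma adjusted p = 0.030), a call that was lost without phosphoramidon replicate 1 or 2, without untreated replicate 1 or 2 and without scaling, each of which left 1 desmosomal call.

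Among 14 tested protocadherins and large cadherins of the FAT, Dachsous and CELSR families, 4 were higher and 3 lower (4 and 1 without scaling between libraries), with a median of 0.00. FAT1, a giant cadherin that regulates actin and growth, was the most abundant named, at 92.7 ± 2.62 FPKM with phosphoramidon and 72.7 ± 4.86 FPKM in untreated cells (0.28, limma adjusted p = 0.0030). DCHS2 rose at a low level (0.70, limma adjusted p = 0.0068). CELSR2, a planar polarity cadherin, was at 6.57 ± 0.157 FPKM with phosphoramidon and 5.24 ± 0.369 FPKM in untreated cells (0.25, limma adjusted p = 0.015). CELSR2 lost its call with no filter on low genes (limma adjusted p = 0.052). FAT4, which binds Dachsous proteins across cell contacts, was at 2.44 ± 0.0607 FPKM with phosphoramidon and 2.91 ± 0.0838 FPKM in untreated cells (-0.32, limma adjusted p = 0.0077). These 4 calls held with any library left out, and without untreated replicate 2 they were the only 4 calls of the list.

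Of the catenins, 3 that bind classical cadherins or link them to actin did not pass the test: beta-catenin CTNNB1 differed by -0.03 (limma adjusted p = 0.66), alpha-catenin CTNNA1 by -0.01 (limma adjusted p = 0.92) and p120-catenin CTNND1 by -0.08 (limma adjusted p = 0.18). Of the 11 tested catenins and actin linkers, 1 was higher and 3 lower. LIMA1, which links cadherin complexes to actin, was at 10.6 ± 0.444 FPKM with phosphoramidon and 16.2 ± 0.316 FPKM in untreated cells (-0.68, limma adjusted p = 4.1e-05). Plakoglobin JUP, a close relative of beta-catenin that also binds cadherin tails and is shared by adherens junctions and desmosomes, was at 24.5 ± 0.953 FPKM with phosphoramidon and 31.0 ± 2.28 FPKM in untreated cells (-0.41, limma adjusted p = 0.0016), and vinculin VCL differed by -0.17 (limma adjusted p = 0.0080). PKP4, an armadillo protein of cell junctions, was at 18.1 ± 0.522 FPKM with phosphoramidon and 13.5 ± 0.496 FPKM in untreated cells (0.35, limma adjusted p = 8.6e-04). Of 4 tested nectins and afadin, an adhesion system beside the cadherins, 2 were higher and 1 lower. Afadin AFDN rose (0.30, limma adjusted p = 0.0011) and NECTIN3 fell by 0.23 on the log2 scale (limma adjusted p = 0.0075). NECTIN1 was just inside the threshold (0.38, limma adjusted p = 0.048) and lost its call without any 1 of the 6 libraries and with no filter on low genes.

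Cadherins are cut at the cell surface and within the membrane by proteases, and of 17 tested genes of processing and shedding 3 were higher and 5 lower. Without scaling between libraries 6 were higher and 5 lower, and by voom 5 were higher and 6 lower. MMP7, a metalloproteinase that can cleave E-cadherin, fell by 1.27 on the log2 scale (limma adjusted p = 2.9e-06) and was past 1.5-fold. The membrane metalloproteinase MMP14 was at 38.8 ± 1.55 FPKM with phosphoramidon and 47.7 ± 2.35 FPKM in untreated cells (-0.37, limma adjusted p = 7.1e-04). The calpains CAPN2 and CAPN1, cytosolic proteases that can cut cadherin tails, differed by -0.35 (limma adjusted p = 3.1e-04) and -0.31 (limma adjusted p = 0.0028). ADAM10, the main sheddase of CDH1 and CDH2, was not called, at 19.9 ± 0.771 FPKM with phosphoramidon and 17.6 ± 0.526 FPKM in untreated cells (0.10, limma adjusted p = 0.086), nor was the proprotein convertase FURIN (-0.17, limma adjusted p = 0.057). Both were called by voom, and ADAM10 also without scaling between libraries. These are transcript levels, and protease activity was not measured.

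Of 9 tested genes of cadherin endocytosis and turnover, 1 was higher and 3 lower. The small GTPase CDC42 was at 22.3 ± 0.590 FPKM with phosphoramidon and 25.4 ± 0.490 FPKM in untreated cells (-0.26, limma adjusted p = 0.0016), and the kinase SRC was at 12.2 ± 0.404 FPKM with phosphoramidon and 14.1 ± 0.528 FPKM in untreated cells (-0.28, limma adjusted p = 0.0025). The GTPase ARF6, which takes part in the recycling of E-cadherin, rose (0.19, limma adjusted p = 0.011). MDM2, a ubiquitin ligase, differed by -0.19 (limma adjusted p = 0.025), and lost that call without phosphoramidon replicate 1 or 2, without untreated replicate 1 or 2 and without scaling.

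Of 9 tested transcription factors known to repress CDH1, 0 were higher and 4 lower, with a median of -0.26, and 1 (ZEB1) was called higher by voom and without phosphoramidon replicate 1. SNAI2 (Slug) was at 8.02 ± 0.853 FPKM with phosphoramidon and 13.0 ± 0.444 FPKM in untreated cells (-0.77, limma adjusted p = 2.9e-04). SNAI1 (Snail) was at 14.4 ± 0.907 FPKM with phosphoramidon and 19.5 ± 1.49 FPKM in untreated cells (-0.50, limma adjusted p = 9.7e-04). TCF3 and ZEB2 also fell, by 0.26 (limma adjusted p = 0.0048) and 0.41 (limma adjusted p = 0.010) on the log2 scale. ZEB1 (0.29, limma adjusted p = 0.12) and TWIST1 (-0.10, limma adjusted p = 0.47) were not called. CDH1, the gene they are known for, was itself not called, as given above.

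Of 7 tested epithelial and renal transcription factors or splicing regulators, 1 was higher and 2 lower. Without scaling between libraries, 3 were higher and 1 lower. GRHL1, an epithelial factor, was at 1.01 ± 0.0820 FPKM with phosphoramidon and 0.546 ± 0.0246 FPKM in untreated cells (0.72, limma adjusted p = 0.0033), and it was called with any library left out. LHX1, a factor of early kidney development, differed by -0.25 (limma adjusted p = 0.016) and the epithelial splicing regulator ESRP1 by -0.62 (limma adjusted p = 0.023). LHX1 lost its call without phosphoramidon replicate 1 or 2 or untreated replicate 2, and ESRP1 lost its call without any 1 library but phosphoramidon replicate 2. Only GRHL1 was left without phosphoramidon replicate 1 or untreated replicate 2. The renal factor PAX8 (0.08, limma adjusted p = 0.20) was not called, except without scaling between libraries (0.15, limma adjusted p = 0.014).

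**Figure D5:**
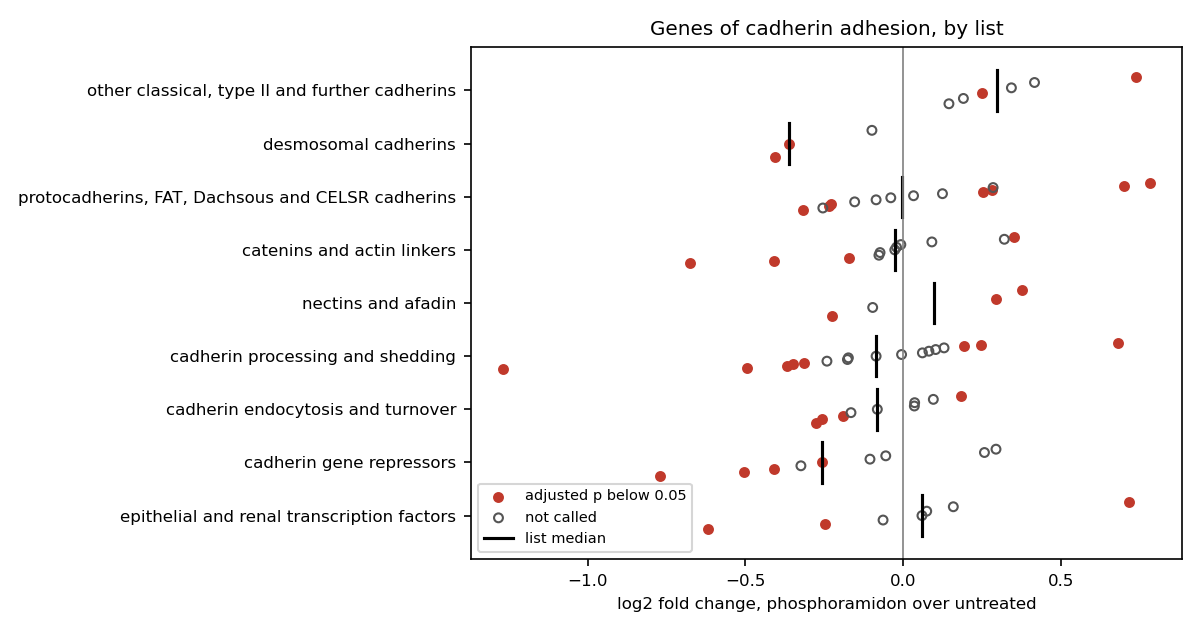
Log2 fold change, phosphoramidon over untreated, of the tested genes of 9 lists of cadherin adhesion and regulation, 1 point per gene: filled red points have a limma adjusted p below 0.05, open points do not, and a black bar marks the median of each list. The lists hold called genes on either side of 0 except the further cadherins (higher only), and the desmosomal cadherins and cadherin gene repressors (lower only).

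Snail and ZEB factors are known to bind the letters CACCTG, or CAGGTG on the other strand, before the start of CDH1. RefSeq (GRCh38.p14) promoter entries matched 2 of the 8 members, CDH2 and CDH4, both higher with phosphoramidon. The windows shown are the 250 bases before annotated starts of these members that lie in no annotated exon, 5′ to 3′ on the strand of the gene, in lower case with CACCTG or CAGGTG in capitals. They lie inside the spans of CDH2 and CDH4 given above, before internal starts. None of them lies before the start of the CDH4 span at 61252426, which was not searched.
CDH2, chr18:28036642-28036891, minus strand: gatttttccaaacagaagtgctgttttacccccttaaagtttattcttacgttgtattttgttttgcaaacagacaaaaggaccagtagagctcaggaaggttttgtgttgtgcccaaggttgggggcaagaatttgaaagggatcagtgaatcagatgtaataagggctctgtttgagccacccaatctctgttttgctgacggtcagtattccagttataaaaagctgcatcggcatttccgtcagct
CDH4, chr20:61499171-61499420, plus strand: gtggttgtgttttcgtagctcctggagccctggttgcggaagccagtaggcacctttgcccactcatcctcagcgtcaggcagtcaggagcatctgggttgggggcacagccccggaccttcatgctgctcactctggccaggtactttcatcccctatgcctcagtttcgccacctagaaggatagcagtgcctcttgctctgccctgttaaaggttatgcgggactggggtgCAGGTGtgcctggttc
CDH4, chr20:61599511-61599760, plus strand: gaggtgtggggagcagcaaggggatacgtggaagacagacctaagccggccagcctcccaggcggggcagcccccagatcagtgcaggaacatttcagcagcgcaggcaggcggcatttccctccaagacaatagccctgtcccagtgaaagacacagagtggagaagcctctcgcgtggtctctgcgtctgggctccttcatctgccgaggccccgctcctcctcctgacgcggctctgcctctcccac
The letters CAGGTG occur once in these windows, 16 bases before the internal start that follows the first CDH4 window. CACCTG or CAGGTG occurs in 17.5% of all 35116 windows of this length. The GC content was 42% in the CDH2 window shown, against 58.4% and 63.6% in the CDH4 windows and a median of 58% over all windows. The 250 bases before the first CDH2 start, which lie in an annotated exon and are not shown, had a GC content of 66% and 1 match to GGGCGG, found in 42.6% of all windows, and none to the other letters searched. The CDH2 window shown holds 1 match each to TGANTCA and TATAAA on either strand, which occur in 6.57% and 10.7% of all windows. Both genes have more than 1 start, and FPKM per gene cannot tell which start was used. A match describes the letters only, and no binding was measured.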

How the data were processed

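RNA-seq of 6 HK-2 libraries was deposited as FPKM per gene. Per the submitters' processing notes, HISAT2 2.1.0, featureCounts 1.6.0, Trimmomatic 0.38, CASAVA and the build GRCh38 were among the tools used, in an order not stated. Neither the annotation release nor strand use is given in the sources used here.

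The deposited FPKM values, multiplied by gene length, fell on whole multiples of 1 step per library. Of 34623 genes above 0, 79.2% gave whole fragments within 0.05 at the GENCODE 29 exon length and 99.9% at some searched length. Lengths of the rest are therefore not checked by that share. Of the members only CDH11 gave whole fragments at its GENCODE 29 length. The others took a searched length, such as 4634 in place of 4950 bases for CDH2 and 12443 in place of 12379 for CDH6.

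FPKM were divided by TMM factors (30% of M and 5% of A values trimmed) from recovered fragments, and log2(FPKM + 0.1) was fitted with limma 3.58.1 (R 4.3.3), with group alone and a trended, robust prior. P-values were adjusted over all 16169 tested genes. Fold changes are on that scale and understate changes of low genes, while means and SDs are of deposited FPKM. Ratios and shares were compared by two-sided exact permutation (scipy 1.17.1). Symbols were found for 37892 IDs, and positions are from GENCODE 29.

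Named list genes are up to 4 called members per list with the lowest p-values, beside a few uncalled ones. The members and lists were chosen with earlier results of these data known. Alternatives were other pseudocounts, scalings and filters, voom, a replicate block and leaving out each library. Same-numbered libraries deviated together with r of 0.396, -0.035 and 0.068, so numbers were not taken to pair libraries.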

Additional observations from a re-analysis of the deposited data

How the results depend on the processing

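The count of genes called, 5434, was 3517 with no filter on low genes, 6346 with voom, 5454 with the replicate block and 4049 to 4820 with 1 library left out, each a total of its own fit. The count past 1.5-fold, 130, was 68 with a pseudocount of 1, 63 with no filter, 272 with voom, 128 with the replicate block and 85 to 137 with 1 library left out. CDH6 was called under every alternative run, at -1.10 to -1.01, and CDH3 at -1.03 to -0.45. CDH2 was called under all but one, at 0.16 to 0.20 with 1 library left out, and CDH4 gave 0.72 (limma adjusted p = 0.14) with no filter and was not tested at 50 fragments. CDH16 turned to 0.013 without scaling, to 0.025 without phosphoramidon replicate 3 and ran from -0.11 to 0.025 with 1 library left out. The ratio of CDH1 to CDH2 gave -0.13 with a pseudocount of 1 and -0.10 to 0.15 with 1 library left out. The replicate block changed no call of a cadherin member (limma adjusted p = 0.015 for CDH2), and its smallest exact permutation p for a ratio was 0.25. Among list members it ended the calls of CELSR3, NECTIN1 (limma adjusted p = 0.087) and DSC3 (limma adjusted p = 0.052), and called ZEB1 as higher (limma adjusted p = 0.032). Calls among further cadherins numbered 1 with no filter and 1 at 50 fragments. Desmosomal calls numbered 1 without scaling, 1 with no filter, 1 with the replicate block and 1 to 2 with 1 library left out. Protocadherin and FAT calls numbered 3 with no filter and 4 to 6 with 1 library left out, and calls among epithelial and renal factors 1 to 3. Of 37 called list members, 26 kept the call under every alternative run, 11 lost it under at least 1 and 0 changed sign. Causes were not tested. Depth limits CDH1, CDH4, CDH11 and CDH13, all under 100 fragments per library. It also limits CDH3, with 71 to 82 fragments per phosphoramidon library and 158 to 175 per untreated library.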

Other observations

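CDH17, liver-intestine cadherin, failed the filter on low values and was picked after its values were seen. It had 1 fragment in each of the 3 phosphoramidon libraries, against 16, 6 and 19 fragments in untreated replicates 1 to 3. The groups did not overlap, and no test was made.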
